A study of Homo sapiens with 9 samples.

Results

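MYEOV and 5 genes that lie near it in chromosome band 11q13, ANO1, FADD, PPFIA1, CTTN and SHANK2, were followed across an array experiment on MEK and metalloproteinase inhibition. They are 6 of the 18132 genes measured, and 22 of the 44988 probe sets with a single gene name were annotated to them. Where a gene had several probe sets, the one brightest on average was used, and the others are given beside it. MYEOV was chosen by its level under the MEK inhibitor, which was far below control, so that difference is described here without a test. The other members were listed for their place on the chromosome, to ask whether neighbours share the difference.

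The cells were MDA-MB231, an established human breast cancer line, plated at 70% confluency in serum-containing medium and lysed after 24 h of treatment. PD325901, an inhibitor of the kinase MEK, was given at 3 µM to 3 cultures. BB94 (batimastat), an inhibitor of metalloproteinases, was given at 10 µM to 2 cultures, and 4 control cultures received 0.1% DMSO. The labels call the cultures biological replicates of this 1 line, and both inhibitors are compared with the same 4 controls. Levels are log2 probe set values from Affymetrix PrimeView arrays, and a difference of 1 is a doubling.

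The median of an array lay between 6.05 and 6.34. The highest of its 23 background probe sets lay between 6.02 and 6.50. That highest value was taken as the array's background level, a strict floor under which a transcript may still be present. A fold is given as "at least" where any array of the dimmer group lay under it, with such arrays first raised to it. The line's markers VIM, CD44, AXL, CAV1 and MSN lay above background on all 9 arrays and ESR1, PGR and CDH1 on 0. EPCAM and GATA3, listed as low, lay above it on all 9. PTPRC, CD3E and CD14 of blood cells and COL1A2 of fibroblasts were above it on 0 arrays, whereas COL1A1 was on 9, at 6.69 to 7.21.

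MYEOV takes its name from overexpression in multiple myeloma, and its protein product is little characterised. The band 11q13 also carries CCND1, which encodes cyclin D1, and is amplified as a block in part of breast and head and neck cancers, so that its genes are often raised together. MEK activates ERK, and transcription factors downstream of ERK are known to drive CCND1. The neighbours have unrelated roles. ANO1 is a calcium-activated chloride channel, FADD the adaptor that joins death receptors to caspases, PPFIA1 a liprin that scaffolds cell adhesion sites, CTTN (cortactin) a binder of branched actin and SHANK2 a scaffold best known from synapses.

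MYEOV was far lower in all PD325901 cultures and at control level under BB94. It stood at 7.84, 6.42 and 6.02 in PD325901 replicates 1 to 3, at 11.98 and 11.90 under BB94 and at 11.81, 11.90, 11.96 and 11.98 in control. The PD325901 arrays lay below every other array, and replicate 1 stood well above the other two. Less of the RNA in every cell and fewer cells that carry it cannot be told apart in lysed cultures. Means were 6.76 ± 0.96 (SD, n = 3) with PD325901 and 11.91 ± 0.07 (SD, n = 4) in control, a log2 difference of -5.15 or at least 31.8-fold. Of the 3 PD325901 arrays, 2 lay above background, replicate 2 barely so at 6.42 against 6.40. Without replicate 1 the bound was 43.8-fold, and without replicate 2 or 3 it was 26.7-fold or 27.5-fold.

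A second MYEOV probe set showed the same arrangement at a lower level. It read 6.41, 5.71 and 5.77 with PD325901, 10.04 and 9.91 with BB94, and 9.94, 9.94, 10.26 and 10.20 in control. Here the difference from control was at least 12.5-fold, and the 2 probe sets correlated over the 9 arrays with r = 0.994, a value that the gap between PD325901 and the other 6 arrays largely sets.

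BB94 gave no detectable change in MYEOV. The log2 change from control was 0.03 with a 95% interval of -0.81 to 0.86 (limma adjusted p = 0.997), and the groups overlapped. That interval is wide because the fit pools the spread of all groups, including the PD325901 arrays. From the BB94 and control arrays alone it was -0.21 to 0.26.

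**Figure D1:**
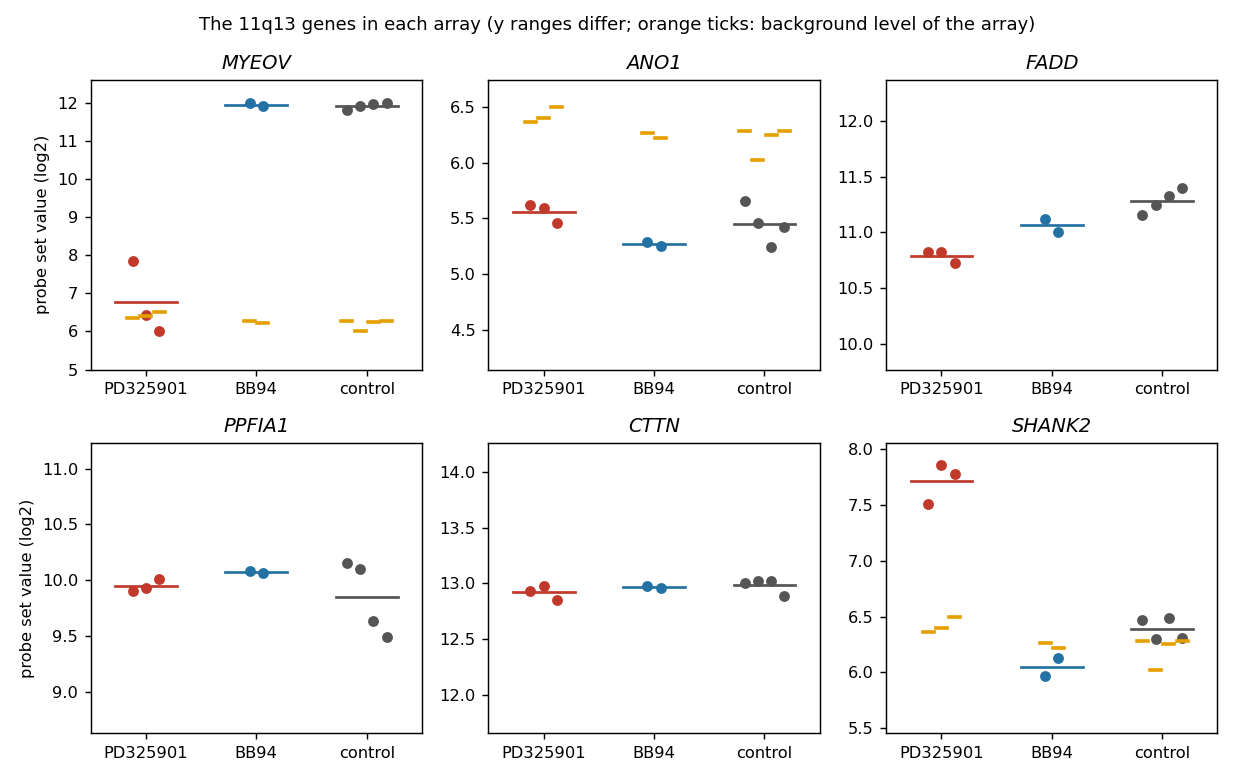
Values of the probe set used for each of the 6 genes (y axis, log2; ranges differ between panels) in the PD325901, BB94 and control arrays. Points are arrays, bars are group means and orange ticks are each array's background level. MYEOV lies between 6.02 and 7.84 with PD325901 and above 11.8 elsewhere, SHANK2 is higher with PD325901, and CTTN is level.

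The large difference of MYEOV was not found in any of the other 5 genes. Limma called FADD lower and SHANK2 higher under PD325901, and it called none of ANO1, PPFIA1 and CTTN. Over all genes 35.1% were called in this comparison, 12.3% lower and 22.8% higher. The groups did not overlap for MYEOV, FADD and SHANK2, as for 40.4% of all genes. Of the 44988 probe sets 29.9% were called. Since the members were listed with this comparison known, nothing is read from their count against these shares.

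FADD fell by a small amount that exceeded the spread between replicates. It stood at 10.82, 10.83 and 10.72 with PD325901, at 11.124 and 11.001 with BB94 and at 11.16, 11.24, 11.33 and 11.40 in control, with no overlap between PD325901 and any other group. The log2 change against control was -0.49 (SE 0.08), 1.41-fold lower, with a 95% interval of -0.68 to -0.30 and a limma adjusted p of 9.7e-04. A second probe set gave 7.21, 7.35 and 7.05 against 7.80, 7.62, 7.93 and 7.77 in control, a log2 change of -0.58 (adjusted p = 0.00173 over all probe sets), and the third lay below background on all arrays. BB94 gave FADD a log2 change of -0.22 that was not called (limma adjusted p = 0.446, interval -0.43 to -0.01). The direct difference between PD325901 and BB94 was -0.27 (adjusted p = 0.0666), which did not pass the threshold.

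SHANK2 rose under PD325901, opposite in direction to MYEOV. Its values were 7.51, 7.86 and 7.78 with PD325901, 5.97 and 6.13 with BB94, and 6.47, 6.30, 6.49 and 6.31 in control. The PD325901 arrays lay above all others, and the BB94 arrays lay below background and below all controls. The change against control was 2.50-fold (log2 1.32, SE 0.10, limma adjusted p = 3.9e-06). Against BB94 it was at least 2.77-fold (log2 1.66, adjusted p = 4.1e-06), and BB94 against control was not called (log2 -0.34, adjusted p = 0.281).

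The control level of SHANK2 was only just above background, and its 5 probe sets did not all show the rise. A second one read 6.72, 6.64 and 7.03 with PD325901 against 6.46, 6.16, 5.95 and 5.47 in control and was also called higher, by at least 1.42-fold (adjusted p = 0.0105 over all probe sets). The other 3 lay below background on every array, with log2 changes of 0.13 to 0.19 that were not called. Averaging all 5 lowered the change to 0.52, which was still called (adjusted p = 5.9e-04).

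CTTN kept a nearly constant level. It read 12.93, 12.98 and 12.85 with PD325901, 12.98 and 12.95 with BB94, and 13.003, 13.022, 13.018 and 12.886 in control, and all groups overlapped. The log2 change was -0.06 for PD325901 (95% interval -0.23 to 0.11, limma adjusted p = 0.603) and -0.02 for BB94 (interval -0.21 to 0.17, adjusted p = 0.986). A second bright probe set gave -0.05 and -0.03. With arrays centred on their median over genes, which lowers every PD325901 change by about the same amount, CTTN had -0.31 and was called (adjusted p = 0.014, range 0.014 to 0.862 over 20 alternatives).

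PPFIA1 varied more among the controls than between treatments. It stood at 9.90, 9.93 and 10.01 with PD325901 and at 10.08 and 10.07 with BB94, all within the control range of 10.15, 10.10, 9.64 and 9.49. Control replicates 1 and 2 averaged 10.13 and replicates 3 and 4 averaged 9.56. Neither inhibitor was called, with log2 changes of 0.10 for PD325901 (interval -0.24 to 0.44, limma adjusted p = 0.677) and 0.23 for BB94 (interval -0.16 to 0.61, adjusted p = 0.759).

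The call on PPFIA1 depended on which controls were used. Against control replicates 3 and 4 alone both inhibitors were called higher, PD325901 by 0.38 (adjusted p = 0.00513) and BB94 by 0.51 (adjusted p = 0.0145). Against replicates 1 and 2 alone the changes were -0.18 and -0.05, not called. The 3' minus 5' signal of the ACTB control probe sets, a measure of RNA integrity, was 3.89, 3.75, 3.46 and 2.96 in control replicates 1 to 4 and 3.50 to 4.22 in the treated arrays. Its part in the split of PPFIA1 was not tested. Of the 6 PPFIA1 probe sets, the next brightest repeated this split, at 10.07 and 9.98 against 9.49 and 9.30. The third brightest, above background on all arrays, did not. It read 7.11, 6.92, 7.03 and 6.61 in control replicates 1 to 4. Under PD325901 it had a log2 change of -0.28 that was not called (limma adjusted p = 0.127 over all probe sets). A dim one, at 5.53 and 5.39 with BB94 and 5.95 to 5.97 in control, was called lower under BB94 while below background in every array of both groups.

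ANO1 lay below background on every array with all 3 of its probe sets. The one used read 5.62, 5.59 and 5.46 with PD325901, 5.29 and 5.25 with BB94, and 5.65, 5.46, 5.24 and 5.42 in control. It was not called with PD325901 (log2 0.11, limma adjusted p = 0.462) or BB94 (log2 -0.18, adjusted p = 0.684). The other probe sets, at 3.28 to 4.16 with PD325901 and 3.97 to 5.05 in control, were called lower. No fold is given, since both groups lay under the floor.

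To ask how far the difference reached along the chromosome without choosing genes, the 20 measured protein-coding genes on each side of MYEOV in RefSeq order were taken. Of these 40 genes, 24 lay above background on at least 1 PD325901 or control array. Under PD325901 limma called 7 lower and 5 higher, or 30% of the 40 against 35.1% of all genes and 33.6% of the other 1119 genes of chromosome 11. Their median log2 change was 0.05, against 0.08 over all genes and 0.08 over the rest of the chromosome. With arrays centred on their median over genes, which moved the median of all genes to -0.17, 14 of the 40 were called lower and 3 higher, against 28% and 13% of all genes under that scaling. Of the 10 nearest genes on each side, 6 of 20 were called lower and 2 higher, against 12.3% and 22.8% of all genes. Falls of at least 2-fold were called in 3 of the 40, against 2.64% of all genes. These were CCND1, LTO1 and LRP5, with LTO1 counted by its brightest probe set alone.

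The 2 genes next to MYEOV on the telomere side had the largest falls among the 40 as read from the brightest probe set. For LTO1 that does not hold with the mean of its probe sets, which gave a log2 change of -0.60. CCND1 stood at 9.58, 9.31 and 9.05 with PD325901, 12.50 and 12.42 with BB94, and 12.45, 12.53, 12.79 and 12.65 in control. That was a 9.78-fold fall (log2 -3.29, SE 0.13, limma adjusted p = 3.6e-08), and all 4 CCND1 probe sets were called lower. With BB94 CCND1 had a log2 change of -0.15 (adjusted p = 0.845), while a dimmer probe set, at 7.70 ± 0.14 with BB94 and 8.70 ± 0.24 in control, was called lower (adjusted p = 0.018 over all probe sets).

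LTO1, which encodes a factor for maturation of an iron-sulphur protein, came next but its probe sets disagreed. The brightest read 10.49, 10.35 and 9.95 with PD325901, 12.76 and 12.70 with BB94, and 12.65, 12.70, 13.01 and 13.03 in control, a 5.98-fold fall (log2 -2.58, SE 0.14, limma adjusted p = 3.2e-07). The second read 11.56, 11.44 and 11.37 with PD325901 and 11.71, 11.64, 11.50 and 11.52 in control, a log2 change of -0.14 that was not called (adjusted p = 0.376 over all probe sets). The remaining 2 lay below background. Over the 9 arrays the first correlated with CCND1 at r = 0.998 and with MYEOV at 0.990, while the second correlated with CCND1 at 0.582. The fall of LTO1 thus rests on 1 of its 4 probe sets, and whether that one reads LTO1 transcripts was not tested.

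**Figure D2:**
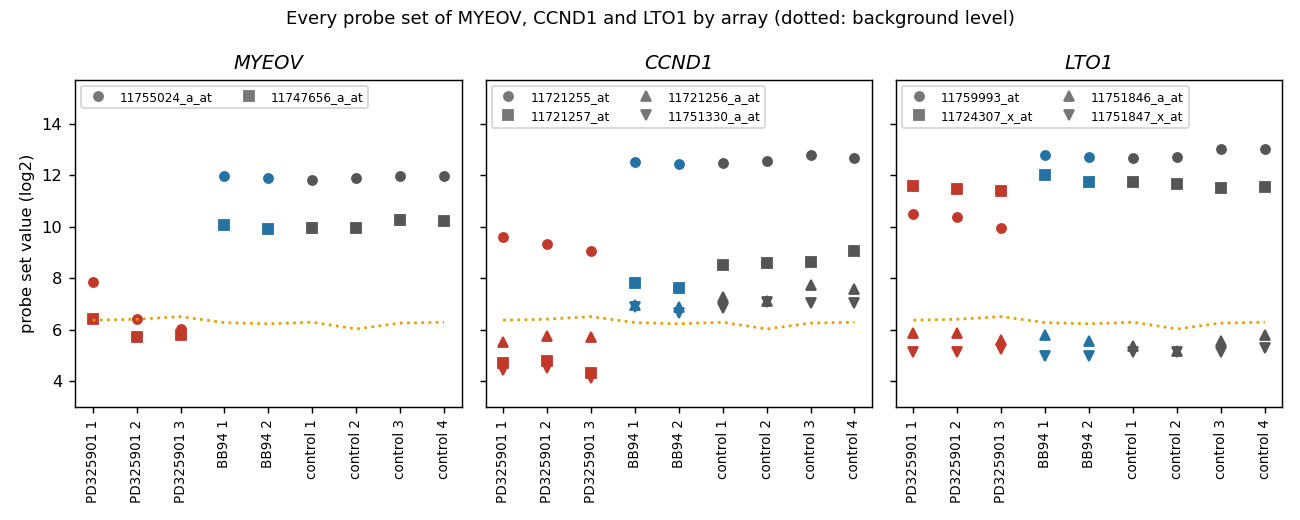
Every probe set of MYEOV, CCND1 and LTO1 (y axis, log2) in each PD325901, BB94 and control array. Marker shapes are probe sets and the dotted line is the background level. All probe sets of MYEOV and CCND1 are lower with PD325901, but only 1 of the 2 bright LTO1 probe sets is.

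Between LTO1 and SHANK2 no fall of 2-fold or more was called. FGF19, FGF4 and FGF3, fibroblast growth factor genes, were below background on every array, with log2 changes of -0.03, 0.12 and 0.18 under PD325901 that were not called. Against control replicates 3 and 4 alone FGF3 had 0.36 and was called (adjusted p = 0.0411), still below background. ANO1, FADD, PPFIA1, CTTN and SHANK2 follow in that order. On the centromere side the nearest gene, TPCN2, which encodes a channel of lysosomes, had a log2 change of -0.19 (limma adjusted p = 0.243). MRGPRF and MRGPRD next to it were not called and lay below background on every PD325901 and control array. IGHMBP2 was at least 1.26-fold lower but not called either (log2 -0.35, limma adjusted p = 0.0614).

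Further out, single genes moved in both directions under PD325901. LRP5, a Wnt co-receptor, fell 2.03-fold (adjusted p = 9.3e-05). GAL, which encodes the neuropeptide galanin, fell 1.76-fold (adjusted p = 8.1e-05) with both of its probe sets called, and C11orf24 fell 1.58-fold. ALDH3B1, an aldehyde dehydrogenase, rose 5.16-fold (log2 2.37, SE 0.08, adjusted p = 2.0e-08) with all 3 probe sets called higher. NADSYN1, the last enzyme of NAD synthesis from tryptophan and nicotinic acid, rose 2.12-fold (adjusted p = 6.3e-05), and IL18BP, a decoy for interleukin-18, 1.37-fold with 1 of its 2 probe sets.

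Under BB94 limma called 0 of the 40 neighbours and 0 of the 6 members, against 1.58% of all genes. FADD and SHANK2 were the members with an unadjusted p under 0.05. Among the neighbours there were 7, with 5 lower and 2 higher, or 17.5% against 10.9% of all genes. The lowest and highest log2 changes were -0.50 for LRP5 (adjusted p = 0.161) and 0.59 for TCIRG1 (adjusted p = 0.0913). With array weights 1 was called lower and 2 higher. Among the members the groups did not overlap for FADD and SHANK2, against 17.3% of all genes, and 1 of 22 probe sets was called, against 1.55% of all probe sets.

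Set directly against BB94, MYEOV was at least 32.4-fold lower with PD325901, given without a test as before. Of the other 5, SHANK2 alone was called, against 31.2% of all genes. ANO1 and SHANK2 were higher and FADD, PPFIA1 and MYEOV lower with PD325901 without overlap, as was the case for 60.8% of all genes in 1 direction or the other. ANO1 lay below background on every array of both groups and was not called. By probe set, 26.3% of all were called, and among the members these held the 2 brightest of SHANK2 and 2 dimmer ones of PPFIA1. One PPFIA1 probe set read 6.64, 6.62 and 6.65 with PD325901 and 7.29 and 6.98 with BB94 (adjusted p = 0.0294), and the other, below background, was higher with PD325901 by 0.41 on the log2 scale. The limma intervals against BB94 were -0.24 to 0.15 for CTTN and -0.53 to 0.28 for PPFIA1.

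**Figure D3:**
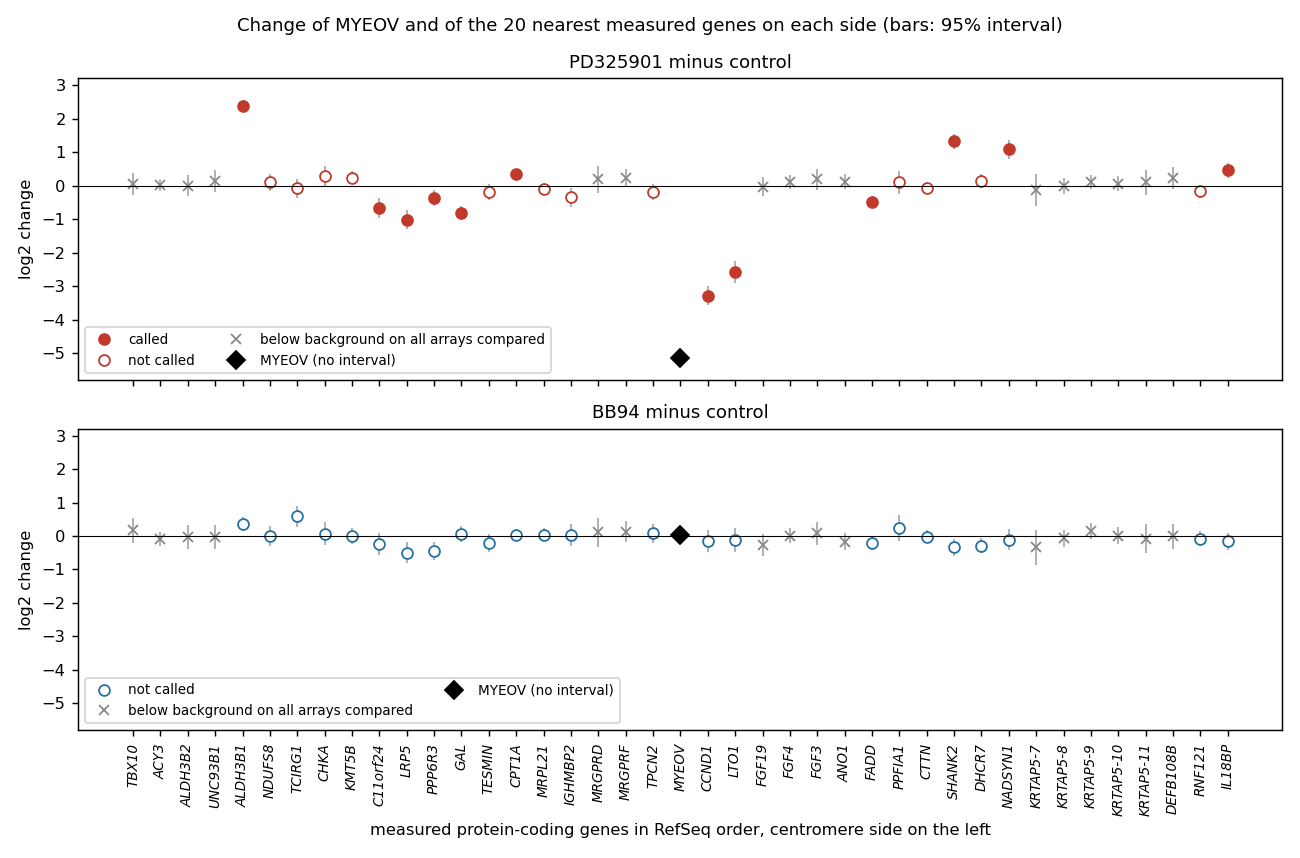
Log2 change (y axis) of MYEOV and of the 20 nearest measured protein-coding genes on each side, in RefSeq order from the centromere side (x axis), for PD325901 minus control (top) and BB94 minus control (bottom). Bars are 95% intervals, filled circles are called genes and crosses are genes below background. MYEOV at -5.15, CCND1 at -3.29 and LTO1 at -2.58 stand together under PD325901, LTO1 only by its brightest probe set. The second bright LTO1 probe set had -0.14 and was not called. LRP5 at -1.02, GAL at -0.81, C11orf24 at -0.66 and PPP6R3 at -0.37 are also called lower further towards the centromere. FADD at -0.49 is called lower on the telomere side. The 5 genes called higher are ALDH3B1 and CPT1A on the centromere side and SHANK2, NADSYN1 and IL18BP on the telomere side. Under BB94 no gene is called.

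Likeness to the pattern of MYEOV was also ranked over genes anywhere in the genome. Pearson correlation over the 9 arrays was taken against 11004 genes above background in at least 1 group, and it is a measure of likeness that the gap between PD325901 and the other arrays largely sets. The 10 highest were ETV5, CDC25A, ETV4, SPRY4, SNRPA1, PECAM1, SAAL1, GMNN, TMEM171 and KRT15, with r of 0.9945 to 0.9988, and 1 of them, SAAL1, is on chromosome 11. ETV4 and ETV5 are ETS transcription factors, SPRY4 restrains receptor signalling, CDC25A activates cyclin-dependent kinases and GMNN (geminin) limits DNA replication to a single round per cycle. Among the 40 neighbours the highest r was 0.992 for CCND1, close to the tenth gene, and the lowest was -0.975 for SHANK2. LTO1 had 0.990 by its brightest probe set. The neighbours are few among 11004 genes, so their absence from the 10 highest says nothing about place on the chromosome.

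Most of the 10 genes most like MYEOV shared its order of the PD325901 arrays. Relative to the control mean MYEOV stood at -4.07, -5.50 and -5.90 in replicates 1 to 3, ETV5 at -3.27, -4.74 and -5.05, and SPRY4 at -4.48, -5.38 and -6.43. Replicate 1 was the highest of the 3 in all 10 genes, and 8 of the 10 had the full order of MYEOV. Because likeness chose them, this is a description of the array and not a separate observation. CDC25A and SNRPA1 followed the pattern on a smaller scale, with mean log2 differences of -1.65 and -0.65.

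**Figure D4:**
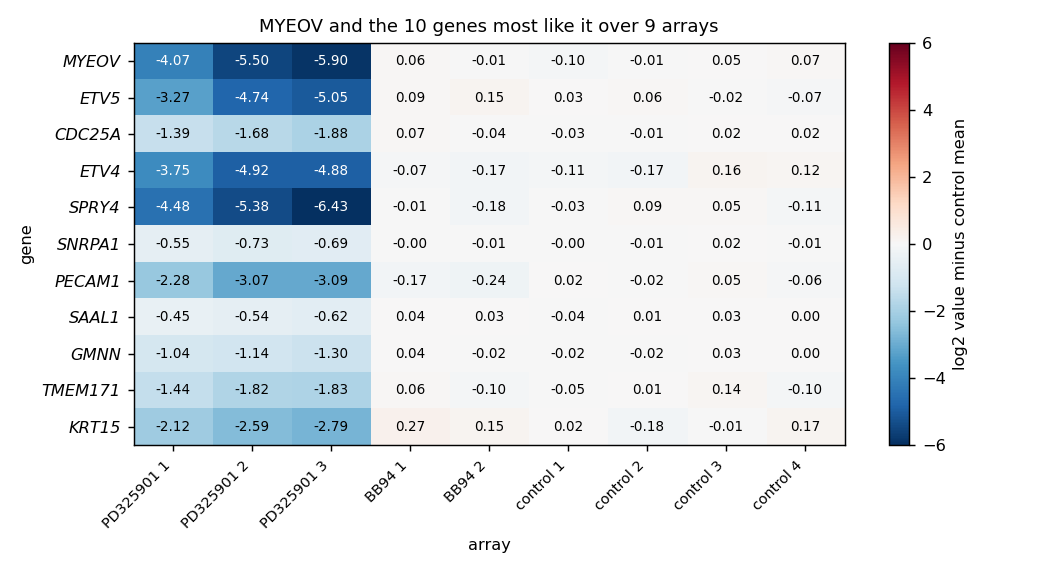
Log2 value minus the control mean (colour and printed number) of MYEOV and the 10 genes most correlated with it (rows) in each array (columns). In every row PD325901 replicate 1 is the least lowered of the 3 PD325901 arrays, and the BB94 and control arrays lie within 0.27 of the control mean.

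Genes that work with the members, and genes of ERK output, were then counted from lists set by function. Over all genes the median log2 change under PD325901 was 0.08, with 22.8% called higher and 12.3% lower. The lists were chosen with earlier results of these data known, so nothing is read from their counts against these shares. Of 16 genes of ERK output, which include CCND1 and 3 of the genes most like MYEOV, 15 fell under PD325901 and 1 was not called, with a median log2 change of -2.61. BB94 changed 0 of them by limma, with 2 at an unadjusted p under 0.05. Death receptor signalling around FADD moved both ways, with 5 of 11 measured genes lower, 2 higher and 4 not called (median -0.10), or 7 of 11 called where 35.1% of all genes were. TNFRSF10A, a receptor for the death ligand TRAIL, fell at least 2.34-fold (limma adjusted p = 2.6e-07) to a level below background. TRADD, an adaptor of the TNF receptor, rose 2.25-fold (adjusted p = 2.5e-05), and FADD, with its 1.41-fold fall, was the next by size.

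Among liprins and their partners, 5 of 14 rose and 2 fell (median 0.17), against 22.8% and 12.3% of all genes. PPFIBP2 rose by 1.26 on the log2 scale (adjusted p = 3.7e-06) and PPFIA4 1.73-fold, while PPFIA2 fell at least 1.07-fold. Of 21 genes of cortactin and branched actin 3 rose and 3 fell (median 0.02). Changes there were small, with ARPC1A of the actin-branching complex 1.33-fold lower and its activator WASL 1.27-fold higher, and CTTNBP2, though called higher, lay under background in both groups.

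Of 10 anoctamin genes 4 were called higher and 1 lower under PD325901 (median 0.24), against 22.8% and 12.3% of all genes. ANO3, one of the 4, lay below background in both groups. ANO2, another calcium-activated chloride channel, was below background in control and rose at least 2.65-fold (adjusted p = 2.3e-08), and ANO8 rose 1.90-fold, whereas ANO9 was above background in 1 of 3 treated arrays only. Among SHANK scaffolds and partners, SHANK2 alone of 10 rose and 2 fell (median 0.04). HOMER2 and HOMER1, which bind SHANK proteins, fell 1.65-fold and 1.54-fold (adjusted p = 2.6e-04 and 8.1e-04).

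Under BB94 those 5 lists held 2 calls, HOMER1, 1.61-fold lower (limma adjusted p = 0.0174), and ANO2, called lower with both groups below background. HOMER1 thus fell with both inhibitors, which share their controls. At an unadjusted p under 0.05 the lists held 1 of 11 genes of death receptor signalling, 2 of 14 liprins and partners, 1 of 21 genes of cortactin and branched actin, 1 of 10 anoctamins and 2 of 10 genes of the SHANK list, against 10.9% of all genes.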

How the data were processed

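Per the series design text, the authors summarised each probe set on a log2 scale by RMA (R package affy), which corrects background and normalizes by quantiles. These deposited log2 values were used unchanged. Of 49395 probe sets, 102 controls were left out, 44988 had 1 gene symbol in the platform annotation, 1832 had several and 2473 were unnamed. RefSeq (GRCh38.p14) matched 44961 of them and gave the chromosome, protein-coding status and gene order. Its positions were used only for order, because the files name no build. Precision is limited by the number of arrays.

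Comparisons used limma 3.58.1 (lmFit, eBayes, two-sided; R 4.3.3) on 18132 genes and all 9 arrays, with 6 residual degrees of freedom and no covariate. Benjamini-Hochberg adjustment ran over all genes, or over all 44988 probe sets where stated, and an adjusted p under 0.05 was a call. On simulated data 90% of 2-fold changes were recovered for PD325901 against control and 87% for BB94. The simulation changed few genes and gave all groups the same spread for a gene. It thus differs from the PD325901 comparison, where 35.1% of genes were called. Members and lists were chosen with earlier results of these data known. Named genes were the members, the neighbours up to SHANK2, the 3 highest and 3 lowest other called neighbours, up to 3 called genes per list and the 10 most correlated with MYEOV. Other genes named were chosen after their values were seen. Alternatives were other probe set summaries, filters, moderation, weights, scalings, a replicate block, left-out arrays, subsets of controls and wider or narrower neighbourhoods.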

Additional observations from a re-analysis of the deposited data

Results flagged for a closer look

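In the control group of 4 arrays, 1 array stood apart from the others in 3 of the 27 probe sets examined, by the ratio of its gap to the group's range (Dixon's test), and chance alone marks about 1 group in 20. In CTTN the lowest control, replicate 4 at 12.89, lay below 13.003 to 13.022 (ratio 0.858), a gap of little size on the log2 scale. In a dim PPFIA1 probe set control replicate 2, at 5.92, lay below 6.29 to 6.33 (ratio 0.909). For FGF19, below background throughout, control replicate 1, at 3.90, lay above 3.37 to 3.42 (ratio 0.897).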

How the results depend on the processing

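The difference of MYEOV under PD325901 stayed between -5.70 and -4.64 on the log2 scale over 20 alternatives. The calls of FADD, SHANK2, CCND1 and LTO1 against control held in all 20, with ranges of -0.74 to -0.40 for FADD, 0.52 to 1.43 for SHANK2, -3.54 to -2.95 for CCND1 and -2.83 to -0.60 for LTO1, whose weakest value is the mean of its probe sets. Of 644 recomputed values over 32 results 577 counted as unchanged, and the cause of the other changes was not tested. Some alternatives, such as leaving out an array of a group not compared, cannot move an estimate. For MYEOV without a test these count as unchanged by construction, so the tally overstates how far the results were tried. For tested genes unchanged meant the same direction and call. For MYEOV without a test it meant the same direction and a shift below the larger group SD. For counts of neighbours it meant a ratio of counts within a set limit. Centring arrays on their median over genes moved the median change of all genes under PD325901 to -0.17, from 0.08, and the calls to 2353 higher and 5076 lower, from 4142 and 2223. It gave -0.14 for ANO1, -0.15 for PPFIA1, -0.31 for CTTN (called), -0.14 for FGF4 and -0.069 for FGF3, and of the 40 neighbours 14 lower and 3 higher. Between the inhibitors it gave -0.040 for ANO1, -0.60 for FADD (called) and -0.37 for CTTN (called), and for BB94 0.057 for CTTN and 1 neighbour higher. Cyclic loess gave -0.29 for FADD (called) and 0.017 for CTTN between the inhibitors.

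Averaging the probe sets of a gene gave PD325901 changes of -0.35 for ANO1 (called) and -0.053 for PPFIA1, and BB94 changes of -0.042 for MYEOV, -0.049 for PPFIA1 and 0.039 for LTO1. Array weights gave -0.055 for PPFIA1 and 0.030 for FGF19 with PD325901, -0.041 for FGF4 with BB94, 0.30 for ANO1 and -0.26 for FADD between the inhibitors (both called), and 1 lower and 2 higher BB94 neighbours. The replicate numbers are labels only: deviations of 7 same-numbered pairs correlated at -0.19 to 0.12. With the replicate block PPFIA1 had -0.016 under PD325901, MYEOV -0.12, FGF4 -0.073 and FGF3 -0.022 under BB94, and ANO1 0.36 between the inhibitors (called).

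With control replicates 1 and 2 alone, PD325901 changes were -0.0012 for ANO1 and -0.18 for PPFIA1. BB94 changes were -0.053 for PPFIA1, 0.053 for LTO1, -0.045 for FGF4 and -0.091 for FGF3, and 2 neighbours were higher. With replicates 3 and 4 alone, PPFIA1 had 0.38 under PD325901 and 0.51 under BB94 (both called), FGF19 0.11 and FGF3 0.36 (called) under PD325901, and under BB94 MYEOV -0.030 and CTTN 0.014. Then 9 neighbours were higher under PD325901, and 2 lower and 1 higher under BB94. Both subsets, and the arrays of the 2 inhibitors alone, gave the same differences between the inhibitors, 0.29 for ANO1 and -0.27 for FADD, now called. FADD was called there also with the filter and with trend and robust settings (-0.27). With 10 genes on each side 6 of 20 neighbours were lower and 2 higher, and with 40 there were 11 lower and 18 higher of 80, against 12.3% lower and 22.8% higher of all genes.

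Leaving out 1 array gave MYEOV -0.013 to 0.064 under BB94. Between the inhibitors it gave ANO1 0.26 to 0.33 and FADD -0.33 to -0.21, both called without control replicate 1. PPFIA1 ran from -0.016 to 0.20 and FGF19 from -0.083 to 0.10 under PD325901, and FGF4 from -0.045 to 0.063 and FGF3 from -0.028 to 0.19 under BB94. A BB94 array left alone was assumed to vary like the other groups.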
